A study of Mus musculus with 107 samples.

Results

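Tnf and the feedback genes of NF-kB were followed in mouse ear skin exposed to sulfur mustard, a blistering and alkylating agent. The genes were chosen by name: Tnf, Nfkbia, Nfkbiz, Nfkbie, Nfkb1, Nfkb2, Relb, Tnfaip3, Bcl3 and Birc3. A gene counted as measured where a probe set of array A or array B, the 2 Affymetrix mouse arrays of the study, carried its symbol alone. Of the 10 names, 9 were found, with 19 probe sets (15 on array A and 4 on array B), out of 18194 genes named this way on both arrays. Nfkb1 was not analysed here. Each gene is represented by its probe set with the highest mean on array A, and Nfkbie by one on array B.

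Mustard was given as 0.08 mg in 5 µL of methylene chloride to the right ear, and skin was taken 24 h later. Drugs in ethanol preceded mustard by 15 min in some animals. These were dimercaprol at 6.25 mg, a dithiol chelator, indomethacin at 1.34 mg, an inhibitor of cyclooxygenases, and octylhomovanillamide at 0.6 mg, a capsaicin analog. The ears held 6 with dimercaprol then mustard, 6 with indomethacin then mustard, 5 with octylhomovanillamide then mustard, 5 with mustard alone and 21 left ears with methylene chloride alone. A separate set of animals without mustard, on array A only, gave 4 ears with dimercaprol only, 4 with indomethacin only, 5 with octylhomovanillamide only, 3 with ethanol and 5 naive ears of 3 animals. No pretreatment is given for the ears with mustard alone, so the effect of a drug given before mustard cannot be told apart from that of its ethanol. The drugs also differed in dose and in volume (10, 20 and 30 µL). The strain, sex and age of the animals are not given in the sources used here.

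NF-kB is a family of transcription factors held in the cytoplasm by inhibitor proteins until a signal such as the cytokine Tnf leads to the inhibitor's destruction. Freed NF-kB switches on inflammatory genes, and among them are its own inhibitors, its precursor subunits and the enzymes that damp the Tnf receptor, so that the response limits itself. In skin, keratinocytes, resident immune cells and arriving leukocytes all use the pathway, and a biopsy mixes them. In such bulk samples a change in the number of cells of a type and a change in RNA per cell cannot be told apart.

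The promoters were searched for GGGNNNNNCC, a loose form of the letters of NF-kB sites. From 250 bases before to 50 after the annotated start, RefSeq sequences (GRCm38.p6) were matched for 7 of the genes, with 10 starts between them. All 10 windows held GGGNNNNNCC on at least 1 strand, against 50.79% of all 32851 promoter windows of that length. A window counted once however many matches it held, and a match is a description of letters, not a binding site. The Nfkb2 windows at chr19:46305445-46305744 and chr19:46305680-46305979 overlap and share the match GGGACTTTCC. TGACTCA, the letters bound by AP-1, was found on either strand in the windows of Nfkbie and of the first start of Tnfaip3, against 5.2% of all windows. Windows of 5 genes that the results below turn on follow, each 5′ to 3′ on the gene's strand, with the matches of GGGNNNNNCC on either strand in capitals. They are Bcl3 (chr7:19822706-19823005, minus strand), the first of 3 starts of Nfkb2 (chr19:46304487-46304786, plus strand), Tnf (chr17:35201958-35202257, minus strand), Nfkbia (chr12:55492598-55492897, minus strand) and Birc3 (chr9:7873121-7873420, minus strand).
Bcl3: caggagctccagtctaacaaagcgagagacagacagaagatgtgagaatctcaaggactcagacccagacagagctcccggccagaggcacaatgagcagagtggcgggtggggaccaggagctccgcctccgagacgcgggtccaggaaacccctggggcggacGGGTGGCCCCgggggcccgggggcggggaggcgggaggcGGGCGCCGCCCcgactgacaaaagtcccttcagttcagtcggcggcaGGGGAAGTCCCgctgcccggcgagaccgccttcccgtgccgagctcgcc
Nfkb2: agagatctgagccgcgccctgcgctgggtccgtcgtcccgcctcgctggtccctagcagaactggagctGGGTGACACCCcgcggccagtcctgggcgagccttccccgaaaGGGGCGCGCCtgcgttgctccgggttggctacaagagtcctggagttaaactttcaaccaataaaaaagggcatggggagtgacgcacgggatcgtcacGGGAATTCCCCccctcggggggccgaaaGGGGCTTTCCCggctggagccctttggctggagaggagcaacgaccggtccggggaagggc
Tnf: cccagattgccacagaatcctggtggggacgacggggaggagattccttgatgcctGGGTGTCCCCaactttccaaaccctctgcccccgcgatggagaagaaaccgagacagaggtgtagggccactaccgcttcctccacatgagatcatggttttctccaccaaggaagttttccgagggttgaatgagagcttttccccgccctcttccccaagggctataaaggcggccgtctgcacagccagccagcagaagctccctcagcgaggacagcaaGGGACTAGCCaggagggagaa
Nfkbia: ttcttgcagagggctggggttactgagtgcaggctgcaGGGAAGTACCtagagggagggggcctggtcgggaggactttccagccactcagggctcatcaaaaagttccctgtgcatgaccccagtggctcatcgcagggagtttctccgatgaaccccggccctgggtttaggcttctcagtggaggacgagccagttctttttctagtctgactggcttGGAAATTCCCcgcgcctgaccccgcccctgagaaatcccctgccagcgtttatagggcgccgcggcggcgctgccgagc
Birc3: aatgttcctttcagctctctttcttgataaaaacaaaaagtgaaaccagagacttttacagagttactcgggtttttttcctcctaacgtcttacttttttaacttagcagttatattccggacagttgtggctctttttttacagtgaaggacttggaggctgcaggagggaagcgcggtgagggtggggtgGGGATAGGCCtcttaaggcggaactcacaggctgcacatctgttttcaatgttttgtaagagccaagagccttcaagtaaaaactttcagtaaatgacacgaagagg

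The arrays were unequal in brightness, and mustard ears were dimmer than most other ears of the animals with mustard. The trimmed mean signal differed by 4.01 times over the 64 arrays of type A and was 66.9 to 137 in mustard ears, against 111 to 222 in methylene chloride ears. The Gapdh ratio, the log2 of its 3′ over its 5′ signal and a sign of RNA breakdown, was 0.30 ± 0.38 in mustard ears (SD, n = 5) and −0.06 ± 0.13 in methylene chloride ears (SD, n = 21). It was highest in the mustard ears of animals 5 and 37, at 0.63 and 0.78. All levels below are signals brought to a common trimmed mean of 500 per array, and fold changes are differences of log2(signal + 16). The tissue label was borne out by 7 of 8 keratinocyte markers above the minimum signal, whose summed level lay between 72189 and 151420 over all ears.

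Mustard against methylene chloride asks which of the genes differed 24 h after exposure. Bcl3, Nfkbiz, Nfkb2 and Tnf were higher in mustard ears, and Nfkbia, Nfkbie, Relb, Tnfaip3 and Birc3 did not pass the threshold. Thus 4 of 9 genes were called, all 4 higher, where 42.9% of all kept probe sets of array A were called (19.2% higher and 23.7% lower) and 26.1% on array B (12.9% higher). The share is near that of all genes, and Bcl3 had the largest difference of the 9. Without rescaling of the arrays, which lowers the median of all probe sets to −0.60, 0 were called higher and 3 lower (Birc3, Nfkbia and Relb) of the 8 genes then above the minimum signal, Bcl3 not being among them, so that directions are relative to the bulk of the genes on an array.

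Bcl3, a nuclear inhibitor-like protein that partners NF-kB subunits lacking their own activation domain, was higher in mustard ears. Its signal was 568, 427, 471, 75.3 and 404 in the mustard ears of animals 1, 3, 5, 36 and 37. In the 21 methylene chloride ears it ranged from 5.31 over a median of 27.4 to 99.9. The mustard ears were above every methylene chloride ear except that of animal 36, which lay inside their range. The fitted log2 difference was 2.89 ± 0.39 (SE; 95% interval 2.10 to 3.68; limma adjusted p = 1.2e-07), and it was 2.63 (adjusted p = 0.000114) without mustard ears 5 and 37. Methylene chloride levels were below the minimum mean signal of 100 (36.7 ± 27.2, SD, n = 21), so that Bcl3 passed that filter only through ears with mustard and its fitted differences from methylene chloride have no exact size. With a pseudocount of 64 in place of 16 the difference was 2.05 (adjusted p = 1.18e-08), and with no filter on any probe set it was 2.89 (adjusted p = 1.79e-07). Bcl3 lies at chr7:19808462-19822824 in GRCm38.p6.

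Nfkbiz, another nuclear member of the inhibitor family, which turns on secondary response genes, was higher by a smaller factor. Its signal was 758, 859, 1139, 561 and 1191 in mustard ears, against 266 to 794 with a median of 489 in methylene chloride ears. Mustard ears 1 and 36 lay inside the methylene chloride range and the other 3 above it. The log2 fold change was 0.88 ± 0.18 (SE, limma adjusted p = 0.000101). Both further probe sets of the gene were also called higher, at 0.79 ± 0.13 on array A and 1.02 ± 0.17 on array B, and on these every mustard ear (316 to 431 and 490.0 to 697) was above every methylene chloride ear (124 to 310.5 and 148 to 464). Such a separation was seen for 3.96% of kept probe sets on array A and 1.81% on array B. With the Gapdh ratio as a covariate the Nfkbiz change on the first probe set was 0.45 (adjusted p = 0.0751).

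Nfkb2, the precursor of the subunit that works with Relb, reached 279, 314, 322, 230.0 and 195 in mustard ears. Methylene chloride ears held 101 to 219.8 with a median of 148. Only mustard ear 37 lay inside that range. The log2 fold change was 0.75 ± 0.15 (limma adjusted p = 8.12e-05), and the second probe set gave 0.79 ± 0.19 (adjusted p = 0.00095). Relb itself, the transcriptional partner of processed Nfkb2, was not called: its signal was 20.4, 129.7, 149.5, 173 and 138 in mustard ears, against 32 to 232 in methylene chloride ears, and the log2 difference was −0.22 (95% interval −0.81 to 0.37, adjusted p = 0.579). The single ear at 20.4, that of animal 1, sat below all other mustard ears.

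Tnf, the cytokine that starts the pathway, was near the minimum signal of 100 in the ears of the animals with mustard. Its mean over all array A ears was 107, and without the naive ears (mean 204) Tnf would have fallen below that minimum. Its signal was 169.9, 151, 185, 61.9 and 144 in mustard ears, and 20.9 to 149.9 with a median of 86.6 in methylene chloride ears. Thus 3 of 5 mustard ears were above every methylene chloride ear, and the ear of animal 36 was below their median. The log2 fold change of 0.77 ± 0.32 passed the threshold narrowly (limma adjusted p = 0.0498). Without mustard ear 1, 3, 5 or 37 the Tnf change was 0.70, 0.73, 0.67 or 0.75, with adjusted p between 0.0996 and 0.14, and with the animal as a block it was 0.35 (adjusted p = 0.577). Here and below, the fit with the animal as a block used only animals with both ears. It left out mustard ear 5 and the other ears without a pair, so that its values do not show pairing alone.

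The cytoplasmic inhibitors were measured with less contrast. Nfkbia, the classical inhibitor that NF-kB induces within minutes, had signals of 8177, 9083, 11153, 6712 and 14377 in mustard ears and 6122 to 12282 in methylene chloride ears. Its groups overlapped, the log2 difference was 0.27 ± 0.13 (limma adjusted p = 0.0907), and 0 of its 5 probe sets were called. Without mustard ear 36, Nfkbia was at 0.40 (adjusted p = 0.0148). Nfkbie, a slower inhibitor, was at 303, 379.7, 55.2, 279 and 415 in mustard ears and at 12.4 to 293 in methylene chloride ears, with a log2 difference of 1.05 ± 0.43 (adjusted p = 0.0624). The mustard ear of animal 5 stood low for Nfkbie, and without it the value was 1.52 (adjusted p = 0.011).

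The ubiquitin enzymes of the Tnf receptor were not called. Tnfaip3, which edits ubiquitin chains and shuts the receptor signal off, was at 153, 171, 140.2, 91.4 and 95.7 in mustard ears and 62.0 to 196 in methylene chloride ears, and both of its probe sets gave a log2 difference of 0.10 (limma adjusted p = 0.659 and 0.606). Birc3, a ubiquitin ligase that protects from Tnf-induced death and holds the alternative pathway down, was at 491, 481, 501, 454 and 547 in mustard ears and 403 to 1012 with a median of 595 in methylene chloride ears. All 5 mustard ears for Birc3 were below the methylene chloride median, and the log2 difference of −0.31 ± 0.14 missed the threshold (adjusted p = 0.0636). With the Gapdh ratio as a covariate Birc3 was called lower, at −0.47 (adjusted p = 0.0262).

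**Figure D1:**
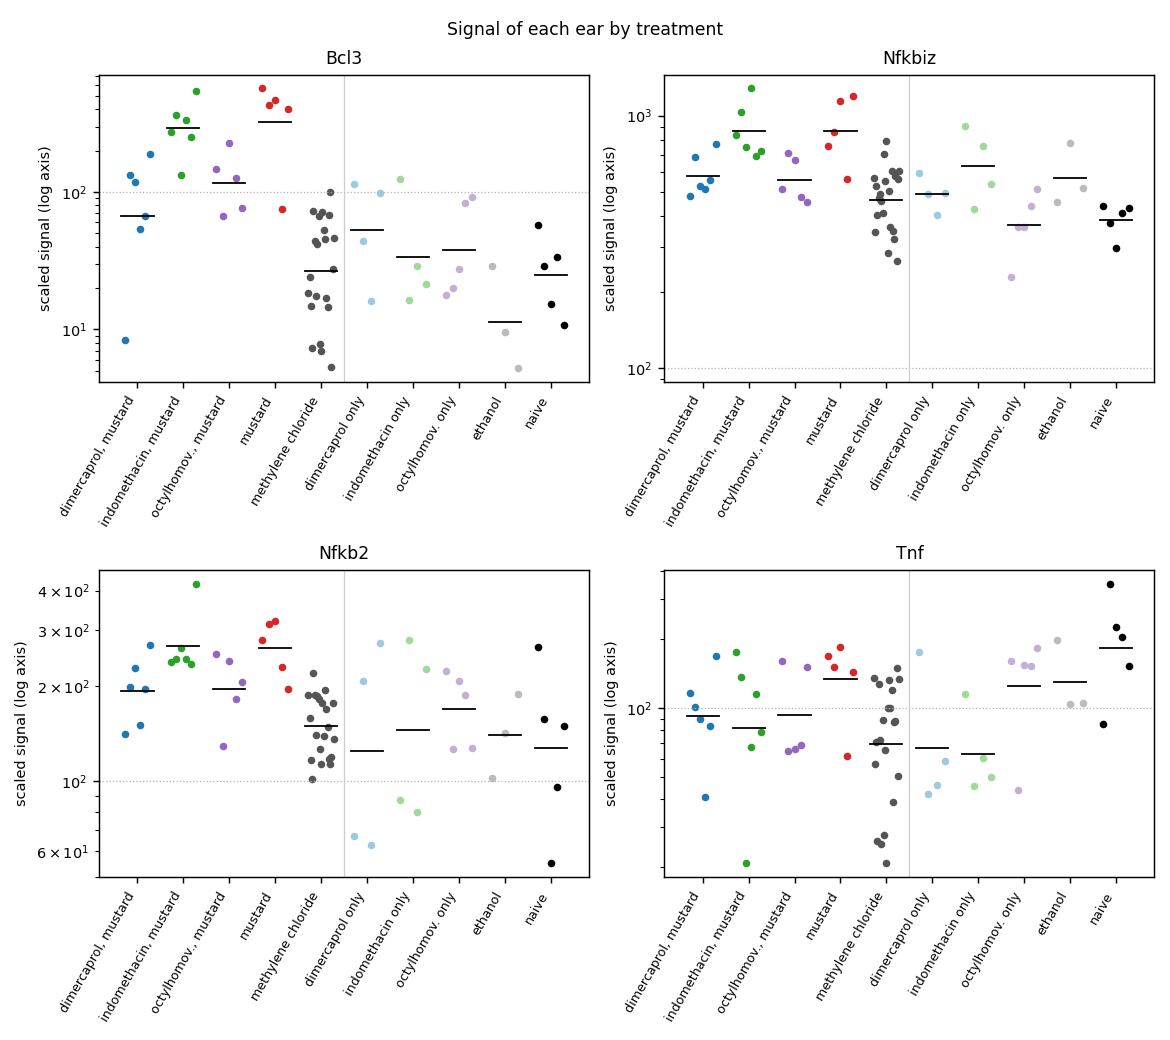
Scaled signal (log axis) of Bcl3, Nfkbiz, Nfkb2 and Tnf in each array A ear (points) by treatment group, with the geometric mean as a black bar and the minimum mean signal of 100 as a dotted line. For Bcl3, 4 of the 5 mustard ears lie at 404 to 568 and the 21 methylene chloride ears at 5.31 to 99.9.

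**Figure D2:**
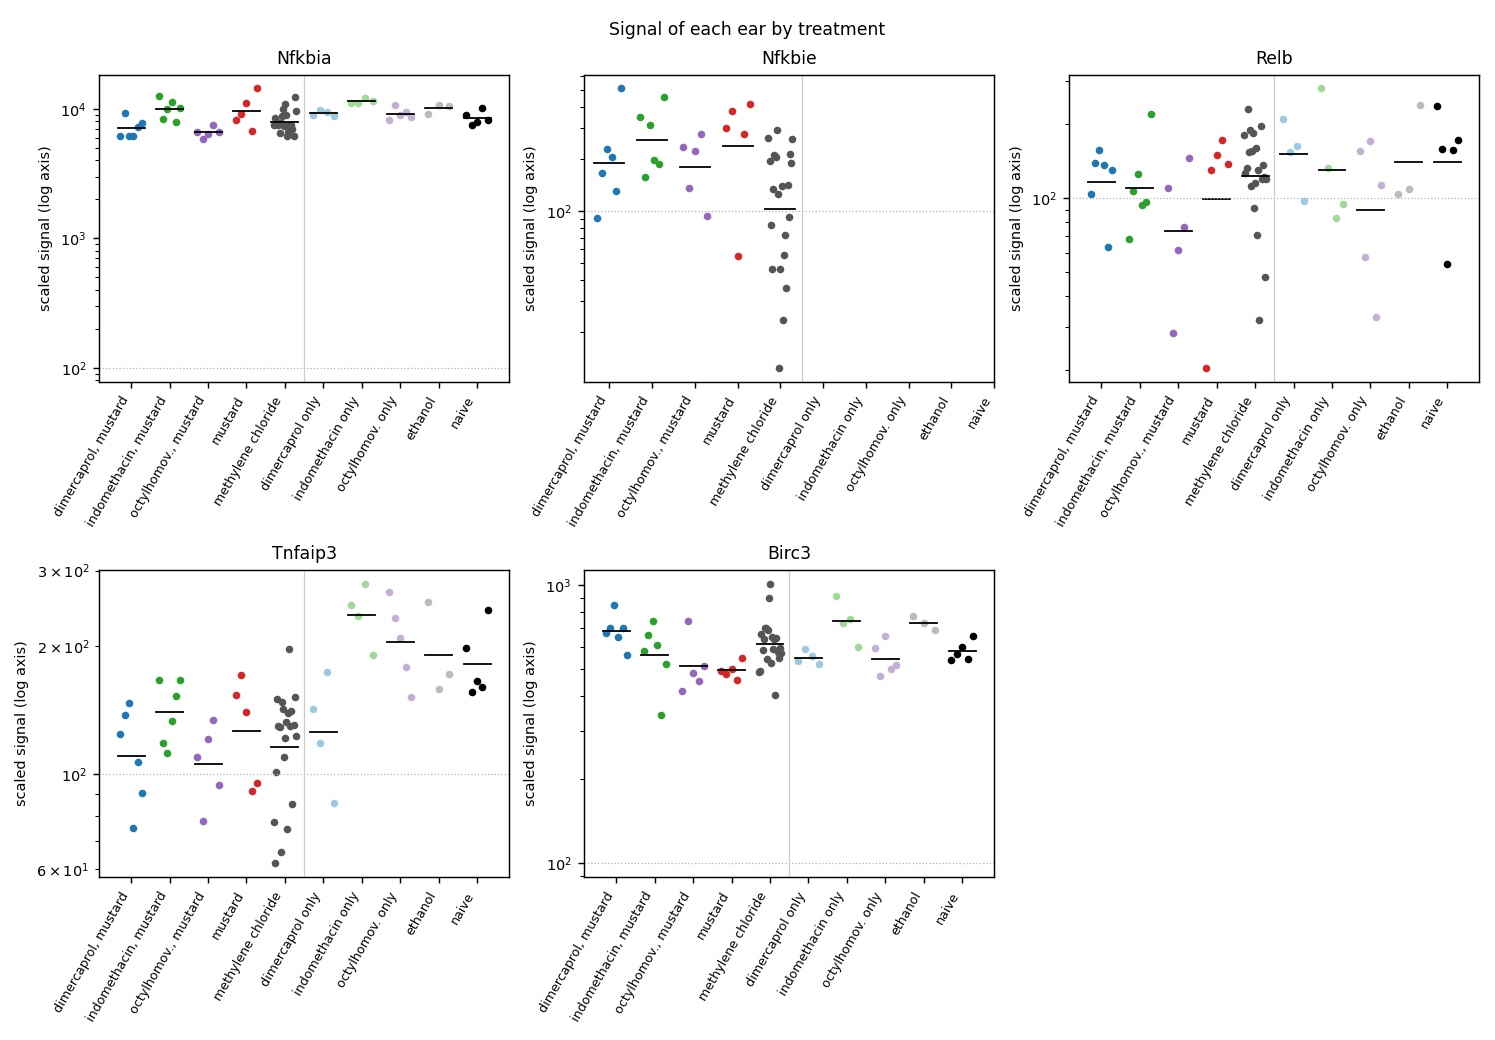
Scaled signal (log axis) of Nfkbia, Nfkbie, Relb, Tnfaip3 and Birc3 in each ear (points) by treatment group, with the geometric mean as a black bar and the minimum mean signal of 100 as a dotted line. Nfkbie was above the minimum signal on array B only and has no values in the animals without mustard, and mustard and methylene chloride ears overlap for all 5 genes.

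Leukocyte markers moved beside these genes, and their part in the result was not tested. Of 10 measured neutrophil markers 6 were called higher and 1 lower in mustard ears, and their summed array A level was 1718 to 4873 in mustard ears and 1396 to 2143 in methylene chloride ears. The sum left out 6 of the 15 neutrophil markers. Cxcr2, Camp, Elane and Clec4e were below the minimum signal on array A, and no array A level is given here for Trem1 and Fpr1. In the animals without mustard, a separate set, the neutrophil sum was 2201 to 3402 and Bcl3 was at 124 or less. Markers within the sum went apart between the sets. Clec4d had a mean of 575 in mustard ears and group means of 144 to 183 without mustard. Mpo had a mean of 406 in mustard ears and group means of 581 to 659 without mustard. Of 12 macrophage and monocyte markers 4 were called higher and 0 lower (sum 4086 to 8915 in mustard ears and 3901 to 8469 in methylene chloride ears), and of 6 Langerhans and dendritic markers 0 were higher and 4 lower.

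Dimercaprol then mustard against mustard asks which genes the drug and its ethanol shifted. Bcl3, Nfkbiz and Nfkbia were lower and Birc3 was higher in dimercaprol then mustard ears, 4 of 9 genes, where 26.9% of kept probe sets were called on array A (15.8% higher and 11.1% lower) and 16.5% on array B. Bcl3 was at 8.39, 132, 119, 54.0, 66.9 and 189 in dimercaprol then mustard ears, so that 5 of the 6 ears were above the methylene chloride median and the highest lay below 4 of 5 mustard ears. The log2 difference was −1.91 ± 0.48 (95% interval −2.87 to −0.95; limma adjusted p = 0.00235). The Bcl3 call held when each of the 11 ears was left out in turn (−2.39 to −1.53) and with the animal as a block (−2.45, adjusted p = 0.0405). It was lost without mustard ears 5 and 37 together (−1.65, adjusted p = 0.0565) and with array brightness as a covariate (−1.41, adjusted p = 0.185).

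Nfkbiz was at 479, 683, 524, 512, 554 and 772 in dimercaprol then mustard ears, of which 4 lay below the lowest mustard ear at 561. The log2 difference was −0.57 ± 0.22 (limma adjusted p = 0.045), with −0.66 (adjusted p = 0.00241) and −0.68 (adjusted p = 0.0231) on the other probe sets. The call on the first Nfkbiz probe set was lost without mustard ear 3, 5 or 37, or without ear 6, 9, 10 or 11 of the dimercaprol group (adjusted p = 0.0683 to 0.159), and with the animal as a block (−0.50, adjusted p = 0.275). Nfkb2 had 141, 199, 229, 151, 195 and 269 in dimercaprol then mustard ears, an overlap with mustard ears, and a log2 difference of −0.42 ± 0.18 (adjusted p = 0.0838). Its second probe set was called, at −0.86 ± 0.23 (adjusted p = 0.00516), and without ear 12 of the dimercaprol group so was the first (−0.51, adjusted p = 0.0385).

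Nfkbia was at 6145, 9321, 6183, 6173, 7274 and 7817 in dimercaprol then mustard ears, and 3 of them lay below the lowest mustard ear. The log2 difference was −0.44 ± 0.16 (limma adjusted p = 0.0364) and 4 other Nfkbia probe sets were not called (−0.52 to −0.34). Birc3, at 675, 700.3, 846, 651, 701 and 559 in dimercaprol then mustard ears, was above the highest mustard ear, 547, in all 6. Such a separation was seen for 8.28% of kept probe sets of array A. Its log2 difference was 0.46 ± 0.17 (adjusted p = 0.0352). With the animal as a block the Nfkbia difference was −0.27 (adjusted p = 0.357) and that of Birc3 0.37 (adjusted p = 0.345). The Nfkbia call was lost without mustard ear 5 or 37 or dimercaprol group ear 6, 9 or 10 (adjusted p = 0.0762 to 0.204), and that of Birc3 without mustard ear 1, 3, 5 or 36 or dimercaprol group ear 6, 8, 9 or 11 (adjusted p = 0.0517 to 0.0917). Without rescaling of the arrays the values were 0.47 for Nfkbia and 0.32 for Nfkbiz, in the opposite direction, and 1.34 for Birc3, with 4 genes called higher and 0 lower. Tnf, at 40.6 to 169 in dimercaprol then mustard ears, was −0.46 ± 0.39 (adjusted p = 0.402).

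Beside these changes, 5 of 10 neutrophil markers were called lower and 0 higher (sum 1396 to 1879 in dimercaprol then mustard ears and 1718 to 4873 in mustard ears) and 4 of 12 macrophage markers were lower. Array brightness differed too, with trimmed means of 150.0 to 268 in dimercaprol then mustard ears and 66.9 to 137 in mustard ears. With array brightness as a covariate the 4 calls were lost. Bcl3 was then at −1.41 (limma adjusted p = 0.185), Nfkbiz at −0.33 (adjusted p = 0.564), Nfkbia at −0.03 (adjusted p = 0.958) and Birc3 at 0.31 (adjusted p = 0.453). Without mustard ears 5 and 37 the last 3 were at −0.30 (adjusted p = 0.498), −0.17 (adjusted p = 0.595) and 0.51 (adjusted p = 0.0924). With the Gapdh ratio in the fit Nfkbiz (−0.16, adjusted p = 0.691) and Nfkbia (−0.20, adjusted p = 0.492) were no longer called, while Bcl3 (−1.92, adjusted p = 0.0199) and Birc3 (0.61, adjusted p = 0.0261) were. The part of the leukocyte markers in the result was not tested.

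Indomethacin then mustard against mustard gave 0 of 9 genes, where 1.87% of kept probe sets were called on array A and 3.17% on array B. Bcl3 was at 273, 366, 134, 334, 254 and 549 in indomethacin then mustard ears, within the range of the mustard ears, with a log2 difference of −0.15 ± 0.48 (95% interval −1.11 to 0.81; limma adjusted p = 0.894). The interval is wide, so that a smaller difference in Bcl3 was not detectable with these ears. Nfkbiz (−0.01, 95% interval −0.45 to 0.43) and Nfkb2 (0.02, interval −0.35 to 0.39) were bounded more tightly. At an unadjusted p under 0.05 the count was also 0 of 9.

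Octylhomovanillamide then mustard against mustard gave lower Nfkbia and Nfkbiz, 2 of 9 genes, where 17.1% of kept probe sets were called on array A (10.6% higher and 6.54% lower) and 9.57% on array B. Nfkbia was at 6634, 5890.2, 6395, 7533 and 6618 in octylhomovanillamide then mustard ears, with 4 of 5 below the lowest mustard ear, and the log2 difference was −0.54 ± 0.17 (limma adjusted p = 0.0219). The 4 other Nfkbia probe sets were not called (−0.55 to −0.29, adjusted p = 0.0601 to 0.417). Nfkbiz was at 511, 709, 668, 477 and 453, with 3 of 5 below the lowest mustard ear, and differed by −0.63 ± 0.23 (adjusted p = 0.0472). Its second array A probe set gave −0.64 (adjusted p = 0.0085) and that of array B −0.61 (adjusted p = 0.0714). Both calls were lost with the animal as a block (Nfkbia −0.30, adjusted p = 0.331, and Nfkbiz −0.44, adjusted p = 0.363). They were also lost with the Gapdh ratio in the fit (−0.26 and −0.15, adjusted p = 0.486 and 0.787), with array brightness (−0.20 and −0.44, adjusted p = 0.567 and 0.416) and without mustard ears 5 and 37 (−0.27 and −0.36, adjusted p = 0.458 and 0.505), Nfkbia before Nfkbiz in each pair. The Nfkbia call was lost without mustard ear 5 or 37 or octylhomovanillamide ear 28 (adjusted p = 0.0609 to 0.124), and the Nfkbiz call without mustard ear 3, 5 or 37 or octylhomovanillamide ear 27, 30 or 33 (adjusted p = 0.0772 to 0.158). Without rescaling the values were 0.20 for Nfkbia and 0.090 for Nfkbiz, in the opposite direction, and 1 gene was called higher and 0 lower.

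Bcl3 after octylhomovanillamide just missed the threshold. Its signal was 147, 67.2, 228, 126 and 76.9 in octylhomovanillamide then mustard ears, all of them below 4 of the 5 mustard ears. The log2 difference of −1.36 ± 0.50 had a limma adjusted p of 0.0519. Without mustard ear 36 it was −1.83 (adjusted p = 0.00427), and without octylhomovanillamide ear 29 it was −1.57 (adjusted p = 0.0326). Of 10 neutrophil markers 4 were called lower and 0 higher in octylhomovanillamide then mustard ears (sum 1549 to 2004 there and 1718 to 4873 in mustard ears), whose part in the result was not tested.

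**Figure D3:**
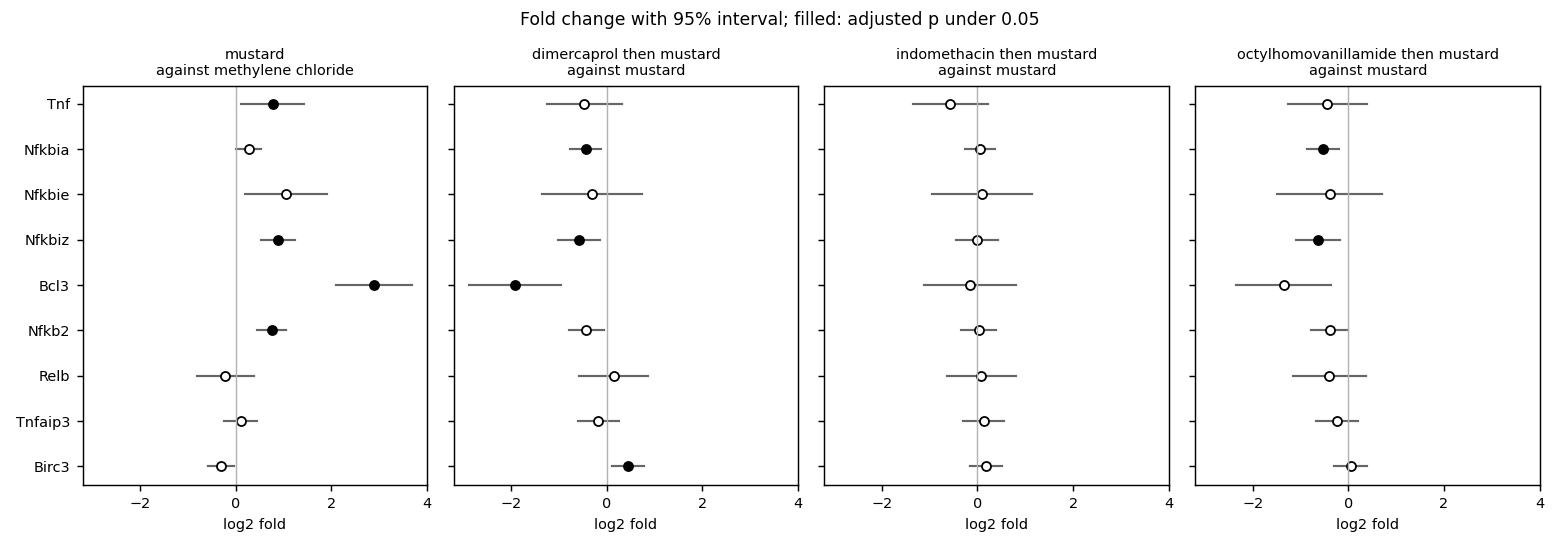
Log2 fold change with its 95% interval for the 9 genes in 4 comparisons (mustard against methylene chloride, and each drug then mustard against mustard), with filled points for a limma adjusted p under 0.05. Bcl3 is at 2.89 for mustard against methylene chloride and at −1.91, −0.15 and −1.36 for dimercaprol, indomethacin and octylhomovanillamide.

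Each drug group was also set against the same 21 methylene chloride ears, which these comparisons share with one another and with the mustard comparison. Indomethacin then mustard gave higher Bcl3, Nfkb2, Nfkbiz, Nfkbie and Nfkbia, 5 of 9 genes, where 36% of kept probe sets were called on array A (16.3% higher and 19.7% lower) and 12.8% on array B (5.68% higher). Bcl3 was higher by 2.74 ± 0.36 (limma adjusted p = 1.15e-07), with the limit given above for Bcl3 in methylene chloride ears (1.89 with a pseudocount of 64), and Nfkb2, at 238, 243, 264, 243, 235 and 421 in indomethacin then mustard ears, by 0.78 ± 0.14 (adjusted p = 2.42e-05). All 6 ears were above every methylene chloride ear for both genes, a separation seen for 4.9% of kept probe sets. Nfkbiz was higher by 0.87 ± 0.17 (adjusted p = 5.12e-05). Nfkbie was higher by 1.15 ± 0.40 (adjusted p = 0.048), lost without any one of indomethacin ears 16, 18, 19, 21 and 22. Nfkbia was higher by 0.32 ± 0.12 (adjusted p = 0.0331), lost without indomethacin ear 16, 18, 19 or 22 and with the animal as a block (0.10, adjusted p = 0.584). Tnfaip3 was called on array B (0.41 ± 0.12, adjusted p = 0.0156) and not on array A (0.23, adjusted p = 0.274). Without rescaling 2 genes were called, Nfkb2 and Nfkbiz, both higher.

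Dimercaprol then mustard gave 0 of 9 genes against methylene chloride, where 3.04% of kept probe sets were called on array A and 0.73% on array B. At an unadjusted p under 0.05 there were 2, Nfkb2 and Bcl3. Bcl3 differed by 0.98 ± 0.36 (limma adjusted p = 0.139), and by 1.36 (adjusted p = 0.026) without dimercaprol ear 6, whose Bcl3 signal was 8.39. Octylhomovanillamide then mustard gave Bcl3 alone, 1 of 9 genes, where 2.77% were called on array A (1.82% higher) and 0.539% on array B. The value was 1.54 ± 0.39 (adjusted p = 0.0182), lost without octylhomovanillamide ear 27, 29 or 30 (adjusted p up to 0.179) and with the animal as a block (1.23, adjusted p = 0.13).

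Between the drugs given before mustard, at their own doses, Bcl3 and Nfkbia differed for dimercaprol against indomethacin, 2 of 9 genes, where 10.5% of kept probe sets were called on array A (4.42% lower) and 1.78% on array B. Bcl3 was lower, at −1.76 ± 0.45 (limma adjusted p = 0.0102) and with the animal as a block at −2.0 (adjusted p = 0.101). Nfkbia was lower, at −0.49 ± 0.15 (limma adjusted p = 0.0311), and at −0.19 with the block (adjusted p = 0.648). It lost its call in 7 of the 12 fits that left out 1 ear. Over all probe sets of the genes, 4 of 13 on array A and 1 of 4 on array B were called, all lower. Octylhomovanillamide against indomethacin gave Nfkbia alone (−0.59 ± 0.16, adjusted p = 0.0409; −0.22 and adjusted p = 0.687 with the block), where 2.08% were called on array A (0.898% lower) and 0.0464% on array B, while Bcl3 was at −1.20 ± 0.48 (adjusted p = 0.152). Dimercaprol against octylhomovanillamide gave 0 of 9 genes, where 0% were called on either array. At an unadjusted p under 0.05 there was 1, Birc3 (0.41), and Bcl3 differed by −0.56 (95% interval −1.52 to 0.40).

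In 17 of the animals with mustard both ears were on array A, so that the right ear can be read against the left ear of the same animal. The Bcl3 difference had a median of 0.90 (0.52 to 1.17) in 4 dimercaprol animals, 2.68 (2.19 to 3.93) in 4 indomethacin animals, 1.34 (−0.32 to 3.00) in 5 octylhomovanillamide animals and 3.56 (2.10 to 4.09) in 4 animals with mustard alone. The dimercaprol differences were all smaller than any indomethacin or mustard one. How many of all probe sets separate in this way is not given here. The left ears were at 73.2, 43.9, 17.6 and 41.7 in the dimercaprol animals and 67.4, 7.78, 6.97 and 71.2 in the indomethacin animals. These signals are below the minimum of 100, so that the differences have no exact size. In the animals with mustard alone Bcl3 had signals of 568, 427, 75.3 and 404 on the right against 18.4, 14.9, 5.31 and 27.4 on the left in animals 1, 3, 36 and 37. The low mustard ear of animal 36 came with the lowest left ear, but these left ears are below the minimum of 100, where order has little weight. Tnf in that animal was at 61.9 on the right and 149.9 on the left. A link between the ears of an animal was not tested for Bcl3.

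The other genes separated less within animals. Nfkbiz was higher in the right ear in 4 of 4 dimercaprol animals (median 0.29), 4 of 4 indomethacin animals (0.61), 4 of 5 octylhomovanillamide animals (0.48) and 4 of 4 animals with mustard alone (0.86). For Nfkb2 the medians were 0.08 with dimercaprol, 0.98 with indomethacin, 0.56 with octylhomovanillamide and 0.70 with mustard alone. Nfkbia had right minus left values of −0.003, −0.36, −0.12, −0.003 and −0.07 in the 5 octylhomovanillamide animals. The values of −0.003 are close to no difference. In all 4 mustard animals it was higher in the right ear, by 0.12 to 0.26. How many of all probe sets separate in this way is not given, and the other Nfkbia probe sets were not paired. Tnf was higher in 3 of 4 mustard animals with a spread from −1.09 to 1.27, wider than its median of 0.62. These differences are descriptions of the ears the comparisons above already used.

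**Figure D4:**
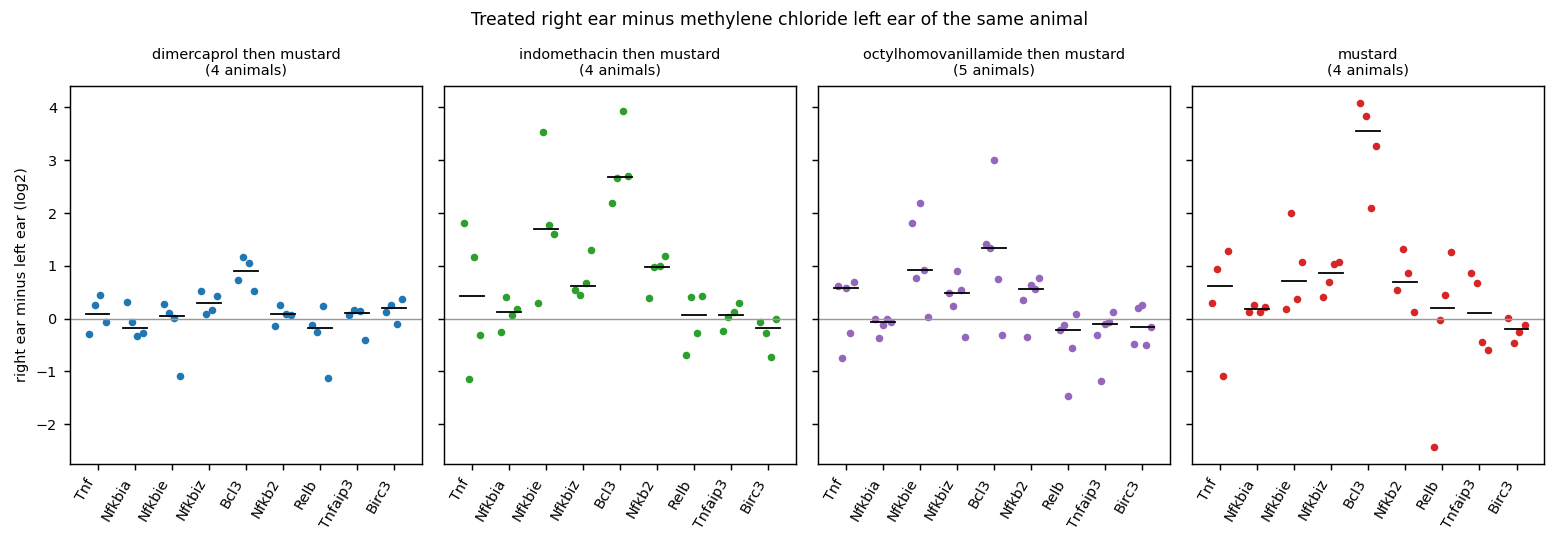
Right minus left ear of the same animal in log2(signal + 16), 1 point per animal, for each gene and each of the 4 groups with mustard on the right ear, with the median as a bar. For Bcl3 the medians are 0.90 after dimercaprol, 2.68 after indomethacin, 1.34 after octylhomovanillamide and 3.56 after mustard alone.

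Drugs without mustard, ethanol and naive ears gave no call in limma. For dimercaprol only, indomethacin only and octylhomovanillamide only against ethanol, and for ethanol against naive, 0 of the 8 genes on array A passed, where 0% of kept probe sets were called. At an unadjusted p under 0.05, Birc3 (−0.40, limma p = 0.00807) and Tnfaip3 (−0.54, p = 0.0312) differed for dimercaprol only, and Birc3 (−0.42, p = 0.00479) and Nfkbiz (−0.61, p = 0.0223) for octylhomovanillamide only. The same held for Birc3 (0.35, p = 0.0288) and Nfkbia (0.24, p = 0.0383) for ethanol against naive, and for 0 of 8 for indomethacin only. Birc3 was at 534, 589, 555 and 522 in dimercaprol only ears, against 775, 734 and 689 in ethanol ears. Naive ears held 539, 568, 597, 543 and 659, so that the ethanol ears were above both of these groups. Indomethacin only ears ran from 601 to 916, around the ethanol ears, and octylhomovanillamide only ears from 472 to 656. With 3 ethanol ears these comparisons had little power. The ethanol ears were the left ears of drug only animals 507 (dimercaprol), 515 (indomethacin) and 520 (octylhomovanillamide). The fits did not use this pairing, here or in the differences of differences below. Bcl3 was low throughout, at 115, 43.6, 16.1 and 98.0 in dimercaprol only ears, 124, 16.4, 29.0 and 21.3 in indomethacin only ears, 17.7, 19.9, 27.7, 83.1 and 92.1 in octylhomovanillamide only ears, 29.1, 9.49 and 5.25 in ethanol ears and 57.9, 28.8, 15.2, 33.7 and 10.7 in naive ears.

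Methylene chloride against naive gave a single call among the probe sets that represent the genes, lower Tnfaip3. Of all 13 array A probe sets of these genes 2 were called lower, so that a further probe set, of another gene, was called too. Tnf was at 20.9 to 149.9 with a median of 86.6 in methylene chloride ears, against 85.0, 351, 226, 205 and 153 in the naive ears. Of the naive ears 4 of 5 were above that median, and Tnf differed by −1.02 ± 0.41 (limma adjusted p = 0.0607). Tnfaip3, at 62.0 to 196 in methylene chloride ears and 197, 156, 165, 159.8 and 242 in naive ears, was at −0.59 ± 0.21 (adjusted p = 0.0322), the only call among the 8 genes, where 21.5% of kept probe sets were called (7.33% higher and 14.2% lower). The Tnfaip3 call was lost without naive animal 501, 502 or 503 (−0.55, −0.68 and −0.55, adjusted p = 0.0647 to 0.161), without rescaling (−0.28, adjusted p = 0.441) and with quantile normalization (−0.35, adjusted p = 0.234). Tnf was called without naive animal 501 (−1.44, limma adjusted p = 0.0334). It passed the minimum signal only through the naive ears, which are 1 side of this comparison, so that this call is not independent of the filter. The vehicle and the set of animals cannot be told apart here, since naive ears came from separately numbered animals.

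A difference of differences set each drug's effect with mustard beside its effect without mustard. For dimercaprol 2 of 8 genes were called, where 8.64% of kept probe sets were (5.32% higher and 3.32% lower). Over all 13 array A probe sets of these genes, 1 was called higher and 3 lower. The 2 effects have unlike controls, since mustard ears had no ethanol and the drug only ears were set against ethanol ears, so that the values are not those of dimercaprol alone. Bcl3 was at −3.25 ± 0.78 (limma adjusted p = 0.00666), made of −1.91 with mustard and 1.33 ± 0.64 without, and the second value rests on the 3 ethanol ears at 5.25 to 29.1. Bcl3 means in all groups without mustard were below the minimum signal, from 14.6 (ethanol) to 68.2 (dimercaprol only). The Bcl3 differences of differences thus have no exact size. Both calls held when each of 18 ears was left out in turn (Bcl3 −3.73 to −2.87, and Birc3 0.80 to 0.92). With a pseudocount of 64 the Bcl3 value was −2.15, and without mustard ears 5 and 37 it was −2.98 (adjusted p = 0.0478). Birc3 was at 0.86 ± 0.24 (limma adjusted p = 0.0198), made of 0.46 with mustard and −0.40 without. In the second value the ethanol ears were above the dimercaprol only and naive ears, and inside the range of the indomethacin only ears. Without mustard ears 5 and 37 the Birc3 value was 0.91 (adjusted p = 0.0527). For indomethacin 0 of 8 were called (0.0377% of probe sets; Bcl3 −1.01; also 0 at an unadjusted p under 0.05), and for octylhomovanillamide 0 of 8 (1.86% of probe sets; Bcl3 −2.31 ± 0.77, adjusted p = 0.0957, the 1 gene at an unadjusted p under 0.05). Without mustard ear 36 the octylhomovanillamide value of Bcl3 was called (−2.79, adjusted p = 0.0138).

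Other genes of the pathway, 67 measured in 5 lists, were read over the same comparisons. In mustard against methylene chloride 27 of 67 were called higher and 11 lower, with a median log2 difference of 0.27. Over all kept probe sets 19.2% were higher and 23.7% lower on array A, with a median of −0.01, and 12.9% higher and 13.2% lower on array B, with a median of 0.14. Of the 67 genes 8 were read on array B. Textbook targets of NF-kB had 14 of 23 higher and 0 lower (median 0.49). Among them were Cxcl1, a neutrophil-attracting chemokine, at 4.57 ± 0.49 (limma adjusted p = 1.31e-09), Icam1, a leukocyte adhesion molecule, at 2.00 ± 0.18 (adjusted p = 3.72e-11), and Ier3, an early stress gene, at 1.32 ± 0.17 (adjusted p = 4.93e-08). Ccnd1, a cyclin of early cell cycle entry, was at 0.99 ± 0.11 (adjusted p = 3.75e-09). Of 4 other Rel subunits and inhibitors 2 were higher and 0 lower: Rela, the main activating subunit, at 0.80 ± 0.12 (adjusted p = 4.33e-07), and Nfkbid, a nuclear inhibitor, at 0.77 ± 0.16 (adjusted p = 0.000206).

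Receptors, adaptors and other brakes were split in direction. Of 7 receptors, ligands and sheddases 2 were higher and 1 lower: Tnfrsf12a, the receptor of the cytokine TWEAK, at 2.75 ± 0.41 (limma adjusted p = 7.86e-07), Tnfrsf1a, the main Tnf receptor, at 0.33 ± 0.07 (adjusted p = 9.83e-05), and Adam17, the protease that releases Tnf, at −0.28 ± 0.10 (adjusted p = 0.0242). Of 18 kinases and adaptors 5 were higher and 5 lower, near the shares of all probe sets given above. Myd88, the adaptor of Toll-like and interleukin 1 receptors, was at 0.81 ± 0.11 (adjusted p = 2.14e-07) and Ikbkg, the scaffold of the kinase complex, at −0.42 ± 0.09 (adjusted p = 0.000326). Of 15 other brakes 4 were higher and 5 lower. Socs3, an inhibitor of cytokine receptor signalling, was at 1.61 ± 0.23 (adjusted p = 3.89e-07) and Zfp36, which degrades cytokine messages such as that of Tnf, at 1.03 ± 0.16 (adjusted p = 1.43e-06). Tax1bp1 and Tnip1, which work with Tnfaip3 at ubiquitin chains, were both lower, at −0.58 ± 0.09 (adjusted p = 1.18e-06) and −0.58 ± 0.10 (adjusted p = 4.89e-06).

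After a drug the same lists had other counts. In dimercaprol then mustard against mustard 7 of 67 were called higher and 20 lower (median −0.15), where 15.8% of all kept probe sets were higher and 11.1% lower on array A (median 0.0025) and 9.37% and 7.11% on array B (median −0.14). Among the 67 were 23 targets with 12 lower and 0 higher, and 15 other brakes with 5 higher and 3 lower. Cxcl1 was at −3.64 ± 0.60 (limma adjusted p = 3.37e-05), Socs3 at −1.49 ± 0.28 (adjusted p = 0.000153), Rela at −0.67 ± 0.14 (adjusted p = 0.000454) and Tnfrsf12a at −1.78 ± 0.50 (adjusted p = 0.00676), while Tax1bp1 was higher at 0.54 (adjusted p = 0.000318) and Tnip1 at 0.46 (adjusted p = 0.00295). In octylhomovanillamide then mustard against mustard 4 were higher and 15 lower (median −0.10), where 10.6% of all kept probe sets were higher and 6.54% lower on array A (median 0.017) and 6.55% and 3.02% on array B (median −0.092). Among them were Cxcl1 at −2.61 (adjusted p = 0.00424), Zfp36 at −0.91 (adjusted p = 0.0024) and Ier3 at −1.11 (adjusted p = 0.00119). In indomethacin then mustard against mustard 3 were higher and 1 lower (median −0.0048), where 1.21% and 0.659% were on array A and 2.39% and 0.777% on array B, and Cxcl1, at −0.89, was not called. All 3 comparisons share the 5 mustard ears.

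The genes most like each member were found by Pearson's r over the 43 array A ears of the animals with mustard, among 9590 other genes. For Bcl3 they were Akr1b8, an aldo-keto reductase (r = 0.906), and S100a8 and S100a9, the subunits of calprotectin (0.904 and 0.896), and after removal of group means r was 0.677, 0.644 and 0.612. Nfkbiz was most like Txnl1, Tmigd1 and Cstb (0.84, 0.83 and 0.83), Nfkb2 most like Ppp2r5d, Srxn1 and Bag3 (0.815, 0.812 and 0.801), and Nfkbia most like the metallothionein Mt2 (0.752), Cytip (0.727) and the stress factor Atf3 (0.722). Tnf, Relb, Tnfaip3 and Birc3 had no gene above 0.690, which was Tpbg for Birc3. The ears share arrays, brightness and treatment, so that these values are descriptions.

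Among themselves the members moved together little once group means were removed. Over 28 pairs of 8 array A genes, r had a median of 0.066 and ran from −0.324 to 0.533, the highest between Nfkb2 and Bcl3. With group means left in, the median over the pairs was 0.103, and Nfkb2 and Bcl3 were at 0.812. Probe sets of the same gene were compared only with group means left in. On array A their r was 0.587 to 0.896 for the 4 of Nfkbia. It was 0.781 for the 2 of Nfkbiz and 0.416 for the 2 of Nfkb2. Between the arrays r over the 43 ears was 0.621 to 0.877 for Nfkbia, 0.642 and 0.744 for Nfkbiz, 0.462 for Nfkbie, whose array A probe set was below the minimum signal, and 0.297 for Tnfaip3. Nfkbie and Tnfaip3 were thus the genes whose probe sets followed each other least across arrays.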

How the data were processed

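Total RNA (10 µg) from 8 mm ear biopsies was hybridized to arrays A (64 ears) and B (43 ears). The deposited values are linear intensity signals that the authors computed with MAS5, per the submitters' processing notes; its version and scaling are not given in the sources used here. Ears were grouped by treatment label. The octylhomovanillamide dose reads 0.6 mg in the treatment label but 0.585 mg in the protocol. The labels name separate animals and no batches.

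Signals were divided by their array's 2% trimmed mean and multiplied by 500, and log2(signal + 16) was analysed. A minimum mean of 100 left 15925 of 22690 probe sets of array A and 17250 of 22575 of array B. Symbols came from the platform annotation, which can be old: 20393, 691 and 1606 probe sets of array A and 14674, 245 and 7656 of array B had 1, several or no symbol. The arrays were analysed apart with limma 3.58.1 (lmFit, eBayes with trend; R 4.3.3, data.table in version 1.17.8), with 2-sided p-values adjusted by Benjamini-Hochberg over all kept probe sets of an array, and a threshold of 0.05, in 18 comparisons. One model held the ears of animals with mustard, and a separate one those without, where naive ears were averaged per animal; methylene chloride against naive and differences of differences used all array A ears. The fit was tested on simulated data. Promoter windows and figures used Python 3.11.15, pandas 2.3.3, NumPy 2.4.6 and matplotlib 3.10.9. The number of ears limits the precision.

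All members are named, with up to 4 genes of each pathway list by smallest adjusted p in mustard against methylene chloride, and the 3 genes most like each member. Members and lists were chosen with earlier results of these data known. Left and right ears with the same number are the same animal. Over 17 such pairs of the animals with mustard, the deviations from group means correlated on average at 0.165 (−0.0954 to 0.441), against −0.0270 for different animals. Alternatives were no rescaling, quantile normalization, a pseudocount of 64, a minimum of 300 or none, eBayes with no trend, the mean over probe sets, the animal as a block, the Gapdh ratio as a covariate and leaving out each ear. The fit with the animal as a block used the 17 pairs only and left out ears without a pair. Leaving out mustard ears 5 and 37 together, array brightness as a covariate, and leaving out single ears in differences of differences and in methylene chloride against naive were chosen after seeing the data.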

Additional observations from a re-analysis of the deposited data

Results flagged for a closer look

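Single ears stood apart from their group for 6 of 68 combinations of gene and group tested, where chance gives about 1 in 20. Each gap to the nearest ear is given as a share of the group's whole range. Bcl3 in the mustard ear of animal 36 was low, with a gap of 0.822, and so was Tnf in the same ear (0.759). Nfkbie in the mustard ear of animal 5 was low (0.79), and Relb in the mustard ear of animal 1 (0.842). Tnf in the octylhomovanillamide only ear of animal 517 was low (0.859). Nfkb2 in the indomethacin then mustard ear of animal 22 was high (0.804). Dimercaprol then mustard against mustard differed from dimercaprol only against ethanol for Bcl3 (−3.25 on the log2 scale) and for Birc3 (0.86), by limma's test of the difference. Mustard ears had no ethanol, so that these contrasts have unlike controls and the differences are not those of dimercaprol alone. Without mustard, Bcl3 means were below the minimum signal in dimercaprol only ears (68.2) and ethanol ears (14.6). The Bcl3 difference of −3.25 thus has no exact size.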

How the results depend on the processing

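Counts of the members called depend on the setting, and the cause was not tested beyond what each setting removes. Over mustard against methylene chloride (4 called as reported), dimercaprol then mustard against mustard (4), indomethacin then mustard against mustard (0), octylhomovanillamide then mustard against mustard (2), indomethacin then mustard against methylene chloride (5), octylhomovanillamide then mustard against methylene chloride (1), dimercaprol against indomethacin before mustard (2), octylhomovanillamide against indomethacin before mustard (1), methylene chloride against naive (1) and the dimercaprol difference of differences (2), a count moved by over 1.5 times as follows. Without rescaling, where Bcl3 fell below the minimum signal and was not tested, they were 2 for indomethacin then mustard against mustard, 1 for octylhomovanillamide then mustard against mustard, 2 for indomethacin then mustard against methylene chloride, 0 for octylhomovanillamide then mustard against methylene chloride, 0 in both comparisons of drugs, 0 for methylene chloride against naive and 1 for the dimercaprol difference. Quantile normalization gave 2 for dimercaprol then mustard against mustard, 1 for octylhomovanillamide then mustard against mustard and 0 for methylene chloride against naive, which a pseudocount of 64 brought to 2. A minimum signal of 300, which leaves fewer members to test, gave 1 for mustard against methylene chloride, 3 and 0 for indomethacin and octylhomovanillamide then mustard against methylene chloride, 1 for dimercaprol against indomethacin, 0 for methylene chloride against naive and 1 for the dimercaprol difference. No filter gave 1 for octylhomovanillamide then mustard against mustard and 0 for octylhomovanillamide against indomethacin, eBayes without trend 1 for octylhomovanillamide then mustard against mustard, and the mean over probe sets 4 for dimercaprol against indomethacin and 0 for octylhomovanillamide against indomethacin. With the animal as a replicate block, which pairs the ears of an animal and leaves out ears without a pair, the counts were 1 for dimercaprol then mustard against mustard and 0 for octylhomovanillamide then mustard against mustard, octylhomovanillamide then mustard against methylene chloride and both comparisons of drugs. The Gapdh ratio as a covariate gave 2, 0 and 0, and array brightness 0, 0 and 0, for dimercaprol then mustard against mustard, octylhomovanillamide then mustard against mustard and octylhomovanillamide against indomethacin, and brightness gave 1 for dimercaprol against indomethacin. Without mustard ears 5 and 37 the counts were 0 for dimercaprol then mustard against mustard, 0 for octylhomovanillamide then mustard against mustard and 1 for the dimercaprol difference.

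Without rescaling, directions turned for Nfkbia in mustard against methylene chloride (−0.36), for Nfkbia (0.47), Nfkbiz (0.32) and Tnfaip3 (0.62) in dimercaprol then mustard against mustard, and for Nfkbia (0.20) and Nfkbiz (0.090) in octylhomovanillamide then mustard against mustard. Leaving out 1 ear at a time gave 3 to 5 members for mustard against methylene chloride, 1 to 5 for dimercaprol then mustard against mustard, 0 to 3 for octylhomovanillamide then mustard against mustard and 0 for indomethacin then mustard against mustard. Against methylene chloride it gave 0 to 1 for dimercaprol, 3 to 5 for indomethacin and 0 to 1 for octylhomovanillamide then mustard. It gave 1 to 4 for dimercaprol against indomethacin and 0 to 1 for octylhomovanillamide against indomethacin, 0 to 1 for methylene chloride against naive, 2 for the dimercaprol difference of differences and 0 to 1 for the octylhomovanillamide one. Signals near the minimum of 100, as for Tnf, Relb and unexposed Bcl3, limit what these arrays can show.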
